A study of Rattus norvegicus with 2 samples.

Results

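The genes described here encode the proteins of the mitochondrial ribosome and were found by name, as Mrpl (large subunit) or Mrps (small subunit) followed by a digit. In the peak list of 1 chromatin immunoprecipitation sequencing (ChIP-seq) library, 36 of 28706 peaks carried such a name, and they belonged to 18 of the 8094 gene names in the annotation. The family itself was counted as 79 protein-coding genes of a RefSeq gene table, 48 of the large and 31 of the small subunit, so that 61 members had no peak of their own name.

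The library came from myocardium of male Wistar rats whose abdominal aorta had been narrowed by a ligature tied over a wire above the renal arteries, which loads the heart with pressure. The sources used here give no age, number of animals or time after surgery. The labels list a ChIP library and an input library of this model, both with replicate number 3. The antibody is given by catalogue entry, and its target was taken from the series title as lactylated lysine 18 of histone H3. Values were analysed for the ChIP library alone, so no groups were compared, no value has a replicate error and no test was possible.

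Mitochondrial ribosomes stand in the matrix and translate the few messenger RNAs of mitochondrial DNA, all of which encode subunits of the respiratory chain and ATP synthase. Their RNA comes from mitochondrial DNA, but every protein of the particle is encoded in the nucleus, made in the cytosol and imported. Heart muscle, which lives on oxidative phosphorylation, depends heavily on this machinery. Histone lactylation is a mark derived from lactate that has been linked to active promoters and enhancers.

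Fold enrichment is the authors' ratio of a peak over the caller's background, and whether the input library served as that background is not stated in the sources used here. The value −log10 q is the caller's significance of the peak on a log scale. Both are the authors' own values, and they serve here only to describe and rank peaks within this list. The distance of a peak runs from its centre to the nearest transcription start site (TSS). Of 14 cardiomyocyte markers, 10 had a peak, among them Tnnt2 at 5.05-fold and Actc1 at 5.25-fold within 1000 bp of the TSS, while Myh6, Ryr2, Tbx5 and Ttn had none. Of 5 endothelial markers 4 had a peak, of 4 fibroblast markers 1 and of 4 immune markers 0. Of all protein-coding genes, 27.1% had a peak. That share lies below the 95% Clopper-Pearson intervals of the cardiomyocyte (41.9 to 91.6%) and endothelial markers (28.4 to 99.5%). It lies inside those of the fibroblast (0.631 to 80.6%) and immune markers (0 to 60.2%). These short lists have wide intervals that all overlap, and differences between cell types were not tested. Heart muscle holds all of these cell types, and which of them carried a given peak was not tested.

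As a family, mitoribosomal protein genes carried peaks about as often as all protein-coding genes of the RefSeq table, gene copies included. A peak of any class stood at 18 of 79 members (22.8%, 95% Clopper-Pearson interval 14.1 to 33.6%), against 27.1% of 23154 protein-coding genes. A peak centred within 1000 bp of the TSS stood at 13 members (16.5%, 9.06 to 26.5%), against 17.1%. A peak that the annotation classes as promoter-TSS stood at 8 members (10.1%, 4.47 to 19.0%), against 9.88%. Each of these background shares lies inside the members' interval, so no excess or lack was detectable at this family size. The background includes gene copies, and its share without them was not counted. Among cytosolic ribosomal genes, 33.8% of 77 with a canonical symbol had any peak, but only 10.1% of 298 with copies included. With peaks of at least 4-fold alone, 13 members (16.5%) had one, against 19.7% of genes, and with −log10 q of at least 5 there were 7 members (8.86%, 3.64 to 17.4%), against 14.4%.

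**Figure D1:**
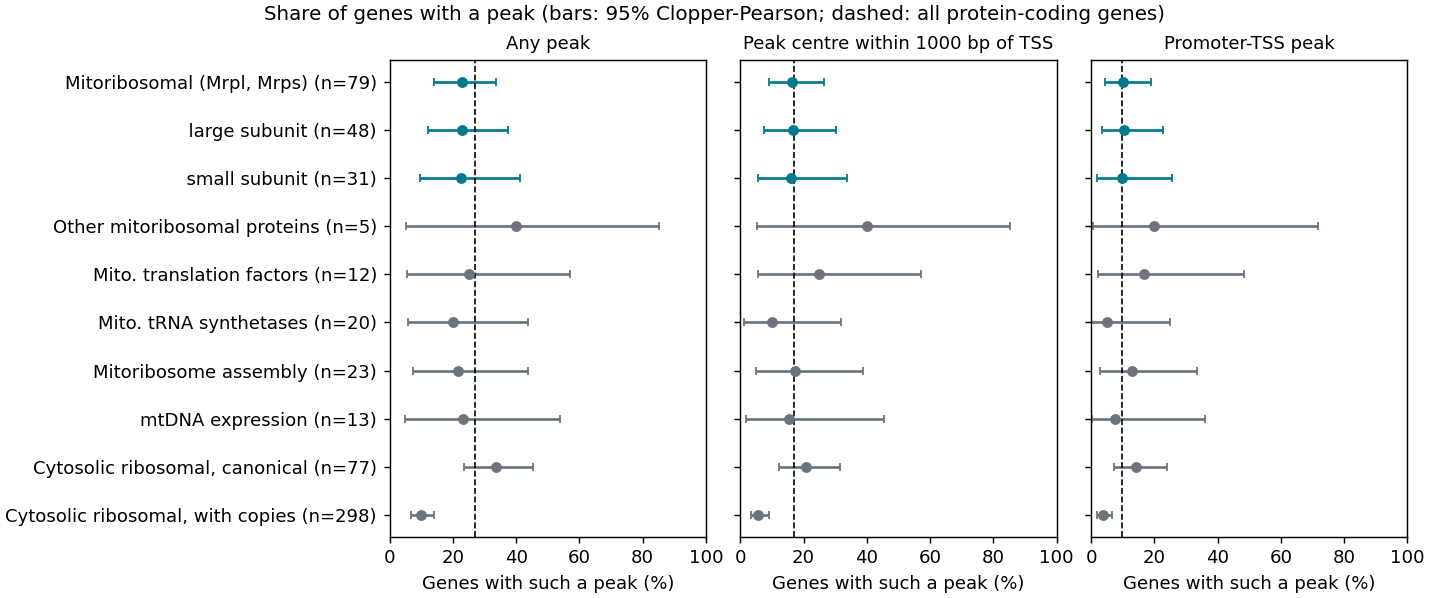
Share of genes with a peak, in percent, for the mitoribosomal genes, their subunits (teal) and other gene lists (grey), by 3 definitions of a peak. Points are shares, bars are 95% Clopper-Pearson intervals and dashed lines mark all protein-coding genes. The mitoribosomal points lie at 22.8%, 16.5% and 10.1%, and their intervals span the lines.

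The members' peaks were of ordinary strength. The strongest peak per member had a median of 4.19-fold (quartiles 3.66 and 5.15, range 2.79 to 5.71, 18 genes), and over all 6268 protein-coding genes with a peak the median was 4.63-fold (3.94 to 5.48). Over all 36 peaks the median was 4.01-fold (quartiles 3.39 and 4.55), against 4.13-fold over the whole list (quartiles 3.62 and 4.79). By fold enrichment, 8 of the 36 stood above the upper quartile of the whole list. Peak width had a median of 311.5 bp, against 375 bp over the list, and the widest, at Mrps23, spanned 1375 bp.

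**Figure D2:**
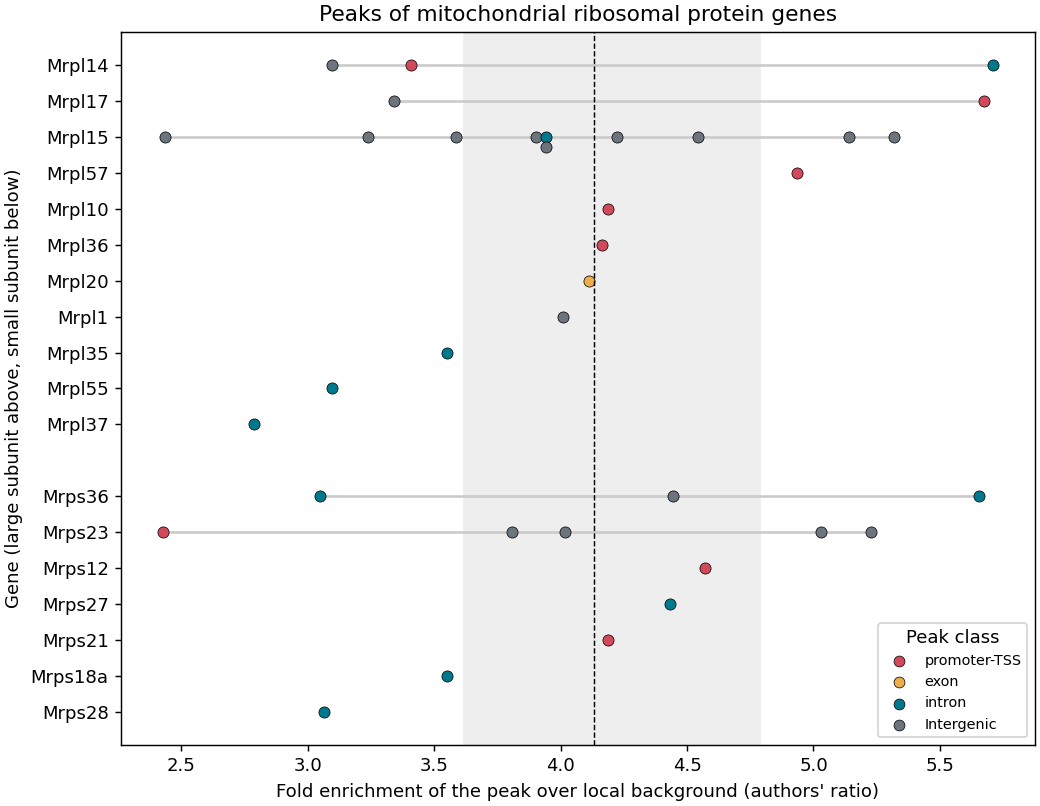
Fold enrichment (authors' ratio, horizontal axis) of every peak of the 18 members with a peak (vertical axis), coloured by peak class. Grey lines join the peaks of a gene, points that would coincide are set apart vertically, the dashed line is the median of all peaks (4.13) and the shaded band runs between their quartiles (3.62 and 4.79). Mrpl14, Mrpl17 and Mrps36 hold the 3 strongest peaks, and 10 of the 36 peaks belong to Mrpl15.

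The 8 promoter-TSS peaks belonged to 5 large subunit genes and 3 small subunit genes. Mrpl17, a large subunit protein with a bacterial counterpart, had the strongest, at 5.67-fold and −log10 q of 8.91 (rn6 chromosome 1, 170654398 to 170655153). This peak was centred 855 bp upstream of the TSS and had a percentile rank of 90.0 among the promoter-TSS peaks of the list. Mrpl57, a large subunit protein without a bacterial counterpart, followed at 4.93-fold (chromosome 15, 38096942 to 38097724), with its centre 339 bp downstream of the TSS. Mrps12, which helps form the decoding centre of the small subunit, had 4.57-fold at 347 bp downstream (chromosome 1, 86923073 to 86923384). For Mrpl57 and Mrps12 the promoter class came from a transcript other than the nearest one, whereas for the other 6 promoter-TSS peaks both were the same transcript. Whether those 2 peaks lie at a promoter of the member itself or of an adjoining gene cannot be told from the assigned names.

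The remaining promoter-TSS peaks were weaker. Mrpl10, a protein of the stalk base that takes part in recruiting translation factors, had 4.19-fold with the centre 73 bp upstream of its TSS (chromosome 10, 84976162 to 84976447). Mrps21, whose bacterial counterpart is a protein of the small subunit, had a peak of the same 4.19-fold, 9 bp upstream of its TSS (chromosome 2, 197982267 to 197982522). The 2 share both fold enrichment and q with each other and with others of the list, 92 peaks in all, so they cannot be ranked among these. Such ties also held for the promoter-TSS peaks of Mrpl57 (93 peaks), Mrps12 (106), Mrpl36 (117) and Mrpl14 (426). Mrpl36 had 4.16-fold, 744 bp upstream (chromosome 1, 32571228 to 32571439), and Mrpl14 had 3.41-fold, 271 bp upstream (chromosome 9, 17698595 to 17699086). At Mrps23, a small subunit protein without a bacterial counterpart, the promoter-TSS peak had 2.43-fold, 587 bp upstream (chromosome 10, 75528253 to 75528592), with a percentile rank of 0.303 among promoter-TSS peaks. The members thus ran from 2.43-fold to 5.67-fold, within a range of 2.21 to 10.7 over all 2807 promoter-TSS peaks, and none reached the strongest peaks of that class.

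The bases just upstream of the start sites are shown for up to 3 large and 3 small subunit members with the strongest promoter-TSS peaks, where the RefSeq promoter table holds them. With only 3 small subunit genes in that class, Mrps23 is included although its peak was the weakest of the 8. Each run is the 250 bases before the TSS, 5′ to 3′ on the gene's strand, from RefSeq with build GRCr8, which is not the build of the peaks. The positions are chr1:169575700-169575949, minus strand for Mrpl17, chr15:36086207-36086456, plus strand for Mrpl57, chr10:82522220-82522469, plus strand for Mrpl10, chr2:186103352-186103601, minus strand for Mrps21 and chr10:73495988-73496237, plus strand for Mrps23. Capitals mark the letters GCATGCGC (bound by NRF1, an activator of nuclear genes for mitochondria), CCGGAAG (core of ETS factors such as GABP), AAGATGGC (YY1), CCAAT (NF-Y) and GGGCGG (SP factors), on either strand. By centre and width, the peaks of Mrpl10, Mrps21 and Mrpl57 reach into the 250 bases before their nearest TSS in the rn6 annotation. Those of Mrpl17 (nearest edge 477 bp upstream) and Mrps23 (417 bp upstream) lie wholly beyond that window. Whether these start sites are those of the GRCr8 runs was not tested, so the runs are not shown to overlap the peaks. If they are the same, the runs of Mrpl17 and Mrps23 show the bases next to the TSS and not those under the peak. Mrps12 is not shown, and a second start of Mrps21 in the table is left out.
Mrpl17: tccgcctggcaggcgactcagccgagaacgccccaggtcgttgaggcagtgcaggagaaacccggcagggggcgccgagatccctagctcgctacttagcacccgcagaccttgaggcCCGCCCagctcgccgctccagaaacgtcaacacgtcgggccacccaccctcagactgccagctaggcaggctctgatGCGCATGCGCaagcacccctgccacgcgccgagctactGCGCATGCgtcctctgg
Mrpl57: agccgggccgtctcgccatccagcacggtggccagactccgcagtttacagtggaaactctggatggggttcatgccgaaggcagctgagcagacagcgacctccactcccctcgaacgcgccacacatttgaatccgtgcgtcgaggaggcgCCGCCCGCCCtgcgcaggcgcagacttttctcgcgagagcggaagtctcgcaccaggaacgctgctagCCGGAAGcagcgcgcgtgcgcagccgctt
Mrpl10: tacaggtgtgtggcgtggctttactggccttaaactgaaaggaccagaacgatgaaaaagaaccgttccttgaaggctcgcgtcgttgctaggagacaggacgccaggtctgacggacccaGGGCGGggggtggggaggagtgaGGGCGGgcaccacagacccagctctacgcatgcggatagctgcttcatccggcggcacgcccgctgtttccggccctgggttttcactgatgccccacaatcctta
Mrps21: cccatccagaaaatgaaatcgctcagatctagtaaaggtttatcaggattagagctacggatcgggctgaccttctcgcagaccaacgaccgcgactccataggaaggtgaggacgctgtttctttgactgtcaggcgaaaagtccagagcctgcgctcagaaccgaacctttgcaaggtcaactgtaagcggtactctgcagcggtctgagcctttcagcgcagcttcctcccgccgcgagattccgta
Mrps23: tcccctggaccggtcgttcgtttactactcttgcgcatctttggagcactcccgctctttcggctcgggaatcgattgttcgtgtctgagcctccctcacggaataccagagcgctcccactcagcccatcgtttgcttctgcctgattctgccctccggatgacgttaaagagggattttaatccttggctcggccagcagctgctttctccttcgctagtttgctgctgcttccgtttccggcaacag

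Mrpl17 held the NRF1 letters in 3 places, 2 of which overlap in a palindrome 55 to 46 bases before the TSS, with another 17 to 10 bases before it. Mrpl57 held the ETS letters 29 to 23 bases before its TSS and overlapping SP letters further up, and Mrpl10 held the SP letters at 2 places. Mrps21 and Mrps23 held none of the 5 motifs in the runs shown. Over the 64 members with an entry in the promoter table, the NRF1 letters stood in 5 (7.81%, 95% Clopper-Pearson interval 2.59 to 17.3%), against 3.04% of 19005 protein-coding genes with an entry. The ETS letters stood in 13 (20.3%, 11.3 to 32.2%), against 9.81%, and this was the one motif whose background share fell below the members' interval, with no allowance made for searching 5 motifs. The YY1 letters stood in 3 (4.69%, against 1.81%), CCAAT in 30 (46.9%, against 36.9%) and the SP letters in 28 (43.8%, against 41.4%). Among the 10 members of this table with a peak within 1000 bp of the TSS, 1 had the NRF1 letters, 2 the ETS letters, 1 the YY1 letters, 3 CCAAT and 5 the SP letters. A run of letters is a description of the window and not a shown binding site.

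A further 5 members had a peak within 1000 bp of the TSS that fell outside the promoter class, always on the downstream side. Mrps36 had the strongest of them, 5.66-fold at 217 bp downstream in intron 1 of 3 (chromosome 2, 30747812 to 30748405, −log10 q of 8.22). Its percentile rank among intron peaks was 91.1, and it stood beside a second intron 1 peak of 3.05-fold at 894 bp (30747320 to 30747542). Mrps36 is now named Kgd4, and its product is known as a subunit of the 2-oxoglutarate dehydrogenase complex rather than of the ribosome. Mrpl20, a large subunit protein with a bacterial counterpart, had 4.11-fold in exon 2 of 4, 416 bp downstream (chromosome 5, 173248529 to 173248794), the only exon peak of the family. Mrpl15, likewise conserved from bacteria, had 3.94-fold 413 bp downstream (chromosome 5, 14609984 to 14610211). This peak was classed in intron 1 of 4 of a transcript other than the nearest. Mrpl55, a large subunit protein without a bacterial counterpart, had 3.10-fold at 561 bp (chromosome 10, 45553226 to 45553486), and Mrps28 had 3.06-fold at 817 bp (chromosome 2, 95045734 to 95045969), both in intron 1.

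In all, 14 peaks were centred within 1000 bp of a member's TSS, 6 upstream and 8 downstream. Their median fold enrichment was 4.14, and that of all 5569 such peaks of the list was also 4.14. The strongest near peak per gene had a median of 4.16-fold over 13 members and of 4.28-fold over 3955 protein-coding genes.

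**Figure D3:**
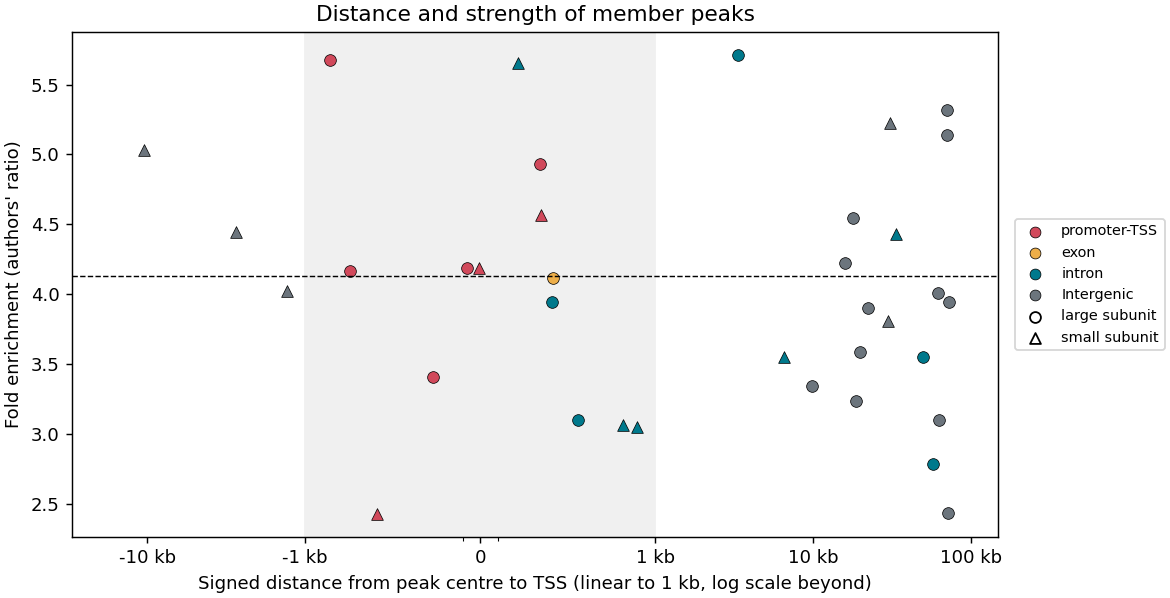
Fold enrichment (authors' ratio) of the 36 member peaks against the signed distance of the peak centre from the TSS, on an axis linear to 1 kb and logarithmic beyond it. Circles are large subunit and triangles small subunit genes, colours are peak classes, the shaded band is the 1000 bp window and the dashed line the median of all peaks (4.13). Strong and weak peaks stand both inside the window (2.43-fold to 5.67-fold) and outside it (2.44-fold to 5.71-fold).

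The strongest peak of the family lay away from the start site of the nearest transcript. It belonged to Mrpl14, a large subunit protein conserved from bacteria, with 5.71-fold in intron 1 of 2, 3.37 kb downstream (chromosome 9, 17689646 to 17690018, −log10 q of 6.40). Its class was given on a second Mrpl14 transcript, the one whose start carried the promoter-TSS peak of 3.41-fold. Another Mrpl14 peak, of 3.10-fold, was intergenic and 63.3 kb downstream (17629833 to 17630032). Mrpl17 had, beside its promoter peak, an intergenic one of 3.34-fold 9.90 kb downstream (chromosome 1, 170643907 to 170644126), which lay 8.46 kb from a peak named for Dchs1. At Mrps36 an intergenic peak of 4.44-fold stood 2.73 kb upstream (30751059 to 30751258).

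Mrpl15 had 10 peaks, 27.8% of the family's total, and 9 of them were intergenic. It was the only one of the 18 members with a peak to have 10 or more, beside 433 of 6268 protein-coding genes with a peak (6.91%). The 9 fell into 2 runs downstream of the gene. The first run held 5 peaks over 6.74 kb (chromosome 5, 14625267 to 14632010), 16.1 to 22.2 kb from the TSS, at 3.24-fold to 4.55-fold. The second held 4 peaks over 2.78 kb (14679882 to 14682656), 70.3 to 72.8 kb away, at 2.44-fold to 5.32-fold. The next names along the chromosome were the unnamed gene model AABR07047008.1, with 18 peaks between 14760160 and 14870345, and then Sox17, an endothelial transcription factor, with 5 peaks from 14888714 to 14894481. A peak's name says only which TSS is nearest, so the 9 intergenic peaks show no link to Mrpl15 itself.

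Mrps23 resembled it, with 5 peaks of which 4 were intergenic. Upstream stood one of 5.03-fold at 10.4 kb (chromosome 10, 75518364 to 75518754) and one of 4.02-fold at 1.30 kb (75527444 to 75527972). Downstream stood one of 3.81-fold at 29.8 kb (75558646 to 75559041) and one of 5.23-fold at 30.99 kb (75559311 to 75560685). All 4 were stronger than the 2.43-fold promoter peak. On the upstream side the nearest peak of another name lay 13.1 kb from the outermost Mrps23 peak and belonged to Cuedc1, which had 24 peaks between 75438216 and 75505278.

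**Figure D4:**
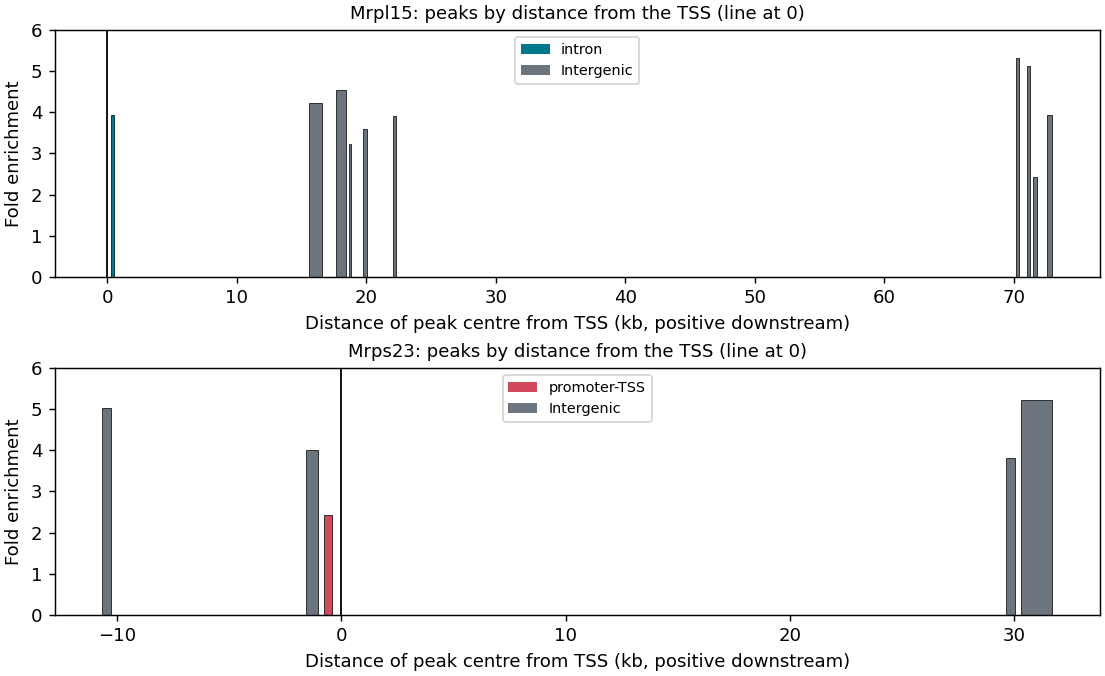
Peaks named for Mrpl15 (top) and Mrps23 (bottom) by distance of the peak centre from the TSS in kb, with bar height showing fold enrichment (authors' ratio) and bar width the width of the peak. Intergenic peaks (grey) make up 9 of 10 at Mrpl15 and 4 of 5 at Mrps23, and the highest bars, at 5.32-fold and 5.23-fold, stand 70.3 and 30.99 kb downstream.

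For 5 members every peak lay beyond 1000 bp. Mrps27, a small subunit protein, had 4.43-fold in its own intron 4 of 10, 33.7 kb downstream (chromosome 2, 29631856 to 29632250). Mrpl1, which forms a mobile stalk of the large subunit, had an intergenic peak of 4.01-fold 62.1 kb downstream (chromosome 14, 14945931 to 14946141). Mrps18a had 3.55-fold in its intron 1, 6.50 kb downstream (chromosome 9, 17248338 to 17248551), and Mrpl35 had 3.55-fold 50.1 kb downstream, in intron 3 of 6 of a transcript other than the nearest (chromosome 4, 99696273 to 99696742). The Mrpl37 peak, of 2.79-fold and 57.6 kb downstream (chromosome 5, 126609070 to 126609387), lay in intron 4 of a transcript of Ssbp3. Its percentile rank among intron peaks was 3.46, and the gene body at this site is that of Ssbp3, although the nearest TSS is that of Mrpl37.

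Large and small subunit genes carried peaks at like rates. Any peak stood at 11 of 48 large subunit genes (22.9%, 95% Clopper-Pearson interval 12.0 to 37.3%) and 7 of 31 small subunit genes (22.6%, 9.59 to 41.1%), a difference of 0.336 percentage points (95% Newcombe interval -19.4 to 18.0). Promoter-TSS peaks stood at 5 of 48 (10.4%) and 3 of 31 (9.68%), a difference of 0.739 points (-15.6 to 14.1). Peaks within 1000 bp stood at 8 of 48 (16.7%) and 5 of 31 (16.1%), a difference of 0.538 points (-17.8 to 16.3). The intervals are wide, so they do not show that the subunits are alike. The strongest peak per gene had a median of 4.16-fold over the 11 large and 4.43-fold over the 7 small subunit genes, within ranges of 2.79 to 5.71 and 3.06 to 5.66 that overlap almost fully.

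The names do not follow the structure in every case. The products of Mrps18a and Mrps30 are known to sit in the large subunit, and that of Mrps36 in another complex. With Mrps18a and Mrps30 counted as large and Mrps36 left out, any peak stood at 12 of 50 (24.0%) and 5 of 28 (17.9%), a difference of 6.14 points (-14.1 to 22.9). The look-alike Mrps36l1, which had no peak, was still counted among the 28. Promoter-TSS peaks then stood at 5 of 50 and 3 of 28, so the sign of that difference turned to -0.714 points.

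By class, 8 of the 36 peaks were promoter-TSS (22.2%, 95% Wilson interval 11.7 to 38.1%), 1 exon, 10 intron (27.8%, 15.8 to 44.0%) and 17 intergenic (47.2%, 32.0 to 63.0%). None lay at a transcription termination site. Over the whole list the shares were 9.78% promoter-TSS, 3.54% exon, 43.8% intron, 1.67% termination site and 41.1% intergenic. The members' promoter share lay above and their intron share below those of the list in these counts, but peaks of 1 gene are not independent. With the strongest peak per gene alone, the intron share was 44.4% of 18 members, against 41.5% of 6268 protein-coding genes counted the same way, so the direction of that difference turned. The intergenic share then was 16.7% against 26.8%, where over all peaks the members' share was the higher, and the promoter-TSS share was 33.3% against 22.4%. Counted by gene, 8 of the 18 members with a peak had a promoter-TSS peak (44.4%), against 36.5% of all protein-coding genes with a peak, and 13 of 18 (72.2%) had one within 1000 bp, against 63.1%. A single peak was found at 13 of the 18 members, a different set from the 13 with a near peak (72.2%, against 45.9% of protein-coding genes with a peak). Without Mrpl15 the intergenic share was 30.8% of 26 peaks.

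Within a class the members' peaks stood near the middle or below it. The median was 4.19-fold for promoter-TSS (all such peaks 4.09), 4.01-fold for intergenic (all 4.16) and 3.55-fold for intron (all 4.11). Of the 10 intron peaks, 2 were above 5-fold, those of Mrpl14 and Mrps36, and 8 were at or under 4.43-fold. Large subunit genes had 23 peaks, of which 5 were promoter-TSS, 1 exon, 5 intron and 12 intergenic, and small subunit genes had 13, of which 3 were promoter-TSS, 5 intron and 5 intergenic. Of the 12 intergenic large subunit peaks, 9 were those of Mrpl15.

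No peak carried the name of 37 large subunit genes. These were Mrpl2, Mrpl3, Mrpl4, Mrpl12, Mrpl13, Mrpl16, Mrpl18, Mrpl19, Mrpl21, Mrpl22, Mrpl23, Mrpl27, Mrpl28, Mrpl30, Mrpl32, Mrpl33, Mrpl34, Mrpl38, Mrpl39, Mrpl40, Mrpl41, Mrpl41l1, Mrpl42, Mrpl42l1, Mrpl43, Mrpl44, Mrpl45, Mrpl46, Mrpl47, Mrpl48, Mrpl49, Mrpl50, Mrpl51, Mrpl52, Mrpl53, Mrpl54 and Mrpl58. Among them are Mrpl12, a stalk protein also known to bind the mitochondrial RNA polymerase, and Mrpl58, which doubles as a release factor for stalled ribosomes. Of the small subunit, 24 genes had none, namely Mrps2, Mrps5, Mrps6, Mrps7, Mrps9, Mrps10, Mrps11, Mrps14, Mrps15, Mrps16, Mrps17, Mrps18b, Mrps18c, Mrps21l, Mrps22, Mrps24, Mrps25, Mrps26, Mrps30, Mrps31, Mrps33, Mrps34, Mrps35 and Mrps36l1. By their symbols, Mrpl41l1, Mrpl42l1, Mrps21l and Mrps36l1 are look-alikes of other members. Sequencing depth is unknown, so the absence of a peak says only that none was called, not that the mark is absent.

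Where a gene sits head to head with another, the annotation gives a shared promoter peak to a single name. Of the 61 members without a peak, 34 had the next gene of the RefSeq table on the opposite strand and head to head, at any distance. How often this holds among all protein-coding genes was not counted. Of these 34 partners, 8 had a peak within 1000 bp of their TSS. These 8 of 34 partners (23.5%, 95% Clopper-Pearson interval 10.7 to 41.2%) stand beside 17.1% of all protein-coding genes, but the shares are not alike in kind. The partners were taken only beside members without a peak, and a shared peak goes to 1 name. Whether partners differ from other genes therefore cannot be read from these shares. For 15 of the 34 members the partner's start site lies within 1000 bp in the promoter table, and 4 of these 15 partners had such a peak (26.7%, 7.79 to 55.1%). They were Ppp1r10, partner of Mrps18b, at 5.42-fold (498 bp downstream, chromosome 20, 3343531 to 3344031), and Pnpla7, partner of Mrpl41, at 4.49-fold (227 bp upstream, chromosome 3, 2182508 to 2182952). The others were Klc4, partner of Mrpl2, at 3.72-fold (272 bp downstream, chromosome 9, 16648094 to 16648295), and Hira, partner of Mrpl40, at 3.24-fold (185 bp downstream, chromosome 11, 86276099 to 86276392). Mrpl46 and Mrps11 are each other's partner, so this 1 pair is counted under both members. Neither could count as a partner with a peak, because only members without one were assessed. The remaining 4 partners with a peak, whose start sites lie further apart, were Jam2 (beside Mrpl39), Npepps (Mrpl45), Rab6a (Mrpl48) and Atp5po (Mrps6). Of the 61, 11 were not in the promoter table and could not be assessed this way.

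The rest of the mitochondrial translation machinery gave a like picture. Of 73 genes in 5 lists, 17 had any peak (23.3%, 95% Clopper-Pearson interval 14.2 to 34.6%), against 27.1% of all protein-coding genes. A peak within 1000 bp stood at 13 (17.8%, against 17.1%) and a promoter-TSS peak at 8 (10.96%, against 9.88%), so these shares were near the background. Of 5 mitoribosomal proteins without an Mrp symbol, Aurkaip1 and Gadd45gip1 had a peak (40.0%, 5.27 to 85.3%), and Chchd1, Dap3 and Ptcd3 had none. The Aurkaip1 peak was a promoter-TSS peak of 5.45-fold, 407 bp upstream (chromosome 5, 173256011 to 173256450), and stood 7.22 kb from the exon 2 peak of Mrpl20. Gadd45gip1 had 4.36-fold, 364 bp downstream in an intron (chromosome 19, 25947168 to 25947519).

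Among 12 translation factors 3 had a peak, led by the release factor family member Mtrfr, annotated under an older symbol, at 4.98-fold (406 bp upstream) and the initiation factor Mtif2 at 4.22-fold (494 bp downstream). Among 20 genes for charging of mitochondrial transfer RNA 4 had a peak, with 4.63-fold at Ears2, the glutamyl-tRNA synthetase, and 3.76-fold at Vars2, the valyl-tRNA synthetase, within 1000 bp. Among 23 assembly genes 5 had a peak. Within 1000 bp of the TSS, Mpv17l2, an inner membrane protein needed for ribosome assembly, had the strongest at 6.14-fold (794 bp upstream, chromosome 16, 20431948 to 20432262), above every mitoribosomal peak. In that window Nsun4, which methylates the small ribosomal RNA, followed with 3.94-fold. Mrm3 had a peak of at least 4-fold further from its TSS. Among 13 genes of mitochondrial DNA expression 3 had a peak, with Lrpprc, which stabilises mitochondrial messenger RNA, at 4.32-fold (57 bp upstream) and Polg2, the accessory subunit of the DNA polymerase, at 3.78-fold within 1000 bp.

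Cytosolic ribosomal protein genes are the most like family, and their share depended on how they were counted. Of 77 genes with a canonical symbol, 26 had any peak (33.8%, 95% Clopper-Pearson interval 23.4 to 45.4%), 16 one within 1000 bp (20.8%, 12.4 to 31.5%) and 11 a promoter-TSS peak (14.3%, 7.35 to 24.1%). Each interval overlaps that of the mitoribosomal genes. With peaks of at least 4-fold alone, any peak stood at 13 of the 77 (16.9%), against 16.5% of the mitoribosomal genes and 19.7% of all protein-coding genes. A peak within 1000 bp then stood at 6.49% (2.14 to 14.5%), against 10.1% (4.47 to 19.0%) and 10.3%. A promoter-TSS peak stood at 5.19% (1.43 to 12.8%), against 7.59% (2.84 to 15.8%) and 5.37%. The order of the families turned for the last 2, on 5 against 8 and 4 against 6 genes, with overlapping intervals. With the many gene copies of the RefSeq table included, 30 of 298 had any peak (10.1%, 6.90 to 14.1%) and 11 a promoter-TSS peak (3.69%). The strongest within 1000 bp carried the names Rpl9, at 6.61-fold, and Rps7, at 4.77-fold. Reads of near-identical copies may be shared between them, so the assignment of cytosolic peaks to single copies is uncertain.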

How the data were processed

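Peaks of 1 ChIP library were analysed, and its input library had no values here. The submitters' processing notes name rat build rn6 and, with no versions, HOMER, MACS2, Bowtie2, SAMtools, FastQC, deepTools and Trim Galore. Peaks were called at q 0.05, per the file headers. Fold enrichment is a ratio, and p and q are −log10 values, as the authors deposited them per the file headers. The deposited score was not used. Peaks were taken as called on 1 library, because their names carry a single sample name. Distance and class come from the authors' HOMER annotation.

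The annotation was joined to the peak list by peak name with pandas 2.3.3. Names were matched to the protein-coding genes of a RefSeq table of GRCr8, 6132 by current and 141 by older symbols, and 78 members plus Mrps36 (an older symbol) made up the family. Counting was tested on simulated data. Shares have 95% Clopper-Pearson or Wilson intervals from scipy 1.17.1, which cover counting error only, and differences have Newcombe intervals. In full were named the 6 strongest members per subunit, those with 2 or more peaks and the strongest per class, and of other lists the 2 strongest within 1000 bp. Members and lists were chosen with earlier results of these data known.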

Additional observations from a re-analysis of the deposited data

How the results depend on the processing

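Of 55 alternative values, 41 stayed close to the value reported and 14 moved. No paired analysis was possible because the ChIP and input libraries share a replicate number but only the ChIP library has values. At −log10 q of at least 5, members with any peak fell to 7 (8.86%, against 14.4% of protein-coding genes), with a promoter-TSS peak to 3 (3.80%, against 4.23%) and with one within 1000 bp to 4 (5.06%, against 8.003%), and the exon share of the members' peaks fell to 0%. At fold enrichment of at least 4, members with a peak within 1000 bp fell to 8 (10.1%, against 10.3%) and the intron share of their peaks to 15.8%. At that cut, cytosolic ribosomal genes with a peak, copies included, fell to 17 of 298 (5.70%). Other mitochondrial translation genes with a peak fell to 11 of 73 (15.1%), and 19.7% of all protein-coding genes had such a peak. A 3000 bp window in place of the promoter class gave 13 members (16.5%, against 18.8%). The promoter class taken on the nearest transcript alone gave 6 members (7.59%, against 7.93%). With the strongest peak per gene alone, the intron share was 44.4% and the intergenic share 16.7%, and without Mrpl15 the intergenic share was 30.8%. By −log10 q in place of fold enrichment, intergenic member peaks stood 0.106 above all intergenic peaks in the median, where by fold enrichment the difference was -0.155. Neighbours with a peak numbered 4 with start sites within 1000 bp. The difference between subunits in the share with any peak changed sign at −log10 q of at least 5 (-1.34 points), inside its interval. Leaving out copies, counting by structure, the class on the nearest transcript and the neighbour condition were chosen after seeing the data, as were the counts without Mrpl15, by strongest peak and by canonical symbols. Depth is unknown, and 1 library gives no measure of how these calls vary between hearts.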
